A study of Mus musculus with 20 samples.

Results

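TRBV1 to TRBV5 are the 5 variable (V) genes at the upstream end of the mouse T cell receptor (TCR) β locus. They were followed here in CD8 T cells from mice with 4 proteasome genotypes. The members were the in-frame TCRβ clones whose first listed V gene was TRBV1, TRBV2, TRBV3, TRBV4 or TRBV5. A clonotype, meaning a distinct combination of V gene, J gene and CDR3 amino acid sequence, was counted once per mouse. Together the 5 genes held 53219 of 250159 clonotypes summed over 17 mice, and they were 5 of the 25 TRBV genes with any in-frame clone. TRBV3 contributed 15466 clonotypes, TRBV4 14413, TRBV1 10744, TRBV2 9083 and TRBV5 3513.

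The β chain is assembled in the thymus by joining 1 V, 1 D and 1 J gene. The recombinase cuts at a signal beside each gene, bases are trimmed from the ends or added to them, and the join becomes CDR3, the loop that contacts the peptide held by MHC. A join can be in frame or out of frame, and only an in-frame join without a stop codon can give a receptor chain, so that out-of-frame joins carried by the same cells are not selected through their own protein.

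WT mice carry both β5i, the immunoproteasome subunit encoded by Psmb8, and β5t, the thymoproteasome subunit encoded by Psmb11. β5i-KO mice lack β5i and β5t-KO mice lack β5t. In BIT mice the β5t coding sequence replaces that of β5i, so that β5t is made in cells that would otherwise make β5i. All mice were male, on the C57BL/6 background and 9 to 12 weeks old, and 1000000 CD8 T cells were sorted per sample. The protocol gives lymph nodes and spleens as their source and the sample labels give lymph nodes. The comparison used libraries from 4 WT mice, 5 lacking β5i, 4 lacking β5t and 4 BIT mice. WT replicate 5 held 1 in-frame clonotype and β5t-KO replicate 5 held 11, so neither was used, and BIT replicate 3, with 401, was kept as an alternative only. Neither the genotypes nor the CD8 label can be checked in TCR libraries. The 17 libraries held 614169 to 2856711 reads from 8119 to 146469 molecules, and 384 to 39542 in-frame clonotypes. Depth differed between genotypes, with 384 to 6581 clonotypes in β5t-KO and 13569 to 34508 in BIT mice.

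In the GRCm39 assembly with GENCODE vM39 annotation, all 5 genes lie on the plus strand of chromosome 6, each with 2 exons. TRBV1 (40868163 to 40868819) stands alone, 155 kb upstream of TRBV2 (41024274 to 41024929). TRBV3 (41025224 to 41025762) starts 0.294 kb after TRBV2, and TRBV4 (41036328 to 41036820) and TRBV5 (41039266 to 41039737) follow within 14 kb. The end of TRBV5 is 470 kb from Trbd1. The germline V end is shown for each gene because it sets the first residues of CDR3 and, in TRBV4, decides which joins can be read through. The first 17 bases below are the part of the V gene inside CDR3, counted from the codon of the conserved cysteine, and the 39 bases after them are the recombination signal, with its heptamer and nonamer in capitals on both sides of a 23 base spacer. Each V end was the most frequent untrimmed end among the deposited clones and was found at 1 place in its gene in GRCm39. For TRBV4 that end was in 30% of 340 untrimmed clonotypes, and for the other genes in 83.2% (TRBV1) to 93.6% (TRBV2).
TRBV1: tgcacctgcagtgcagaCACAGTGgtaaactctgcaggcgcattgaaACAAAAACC
TRBV2: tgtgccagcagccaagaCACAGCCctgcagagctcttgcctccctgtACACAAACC
TRBV3: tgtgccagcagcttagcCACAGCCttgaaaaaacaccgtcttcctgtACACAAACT
TRBV4: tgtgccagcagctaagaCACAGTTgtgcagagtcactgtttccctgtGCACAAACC
TRBV5: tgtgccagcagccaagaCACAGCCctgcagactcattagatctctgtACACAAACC

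TRBV2 and TRBV5 had the same 17 base V end, and their signals were identical at 31 of 39 bases. TRBV1 was the least like the others, with 16 to 18 of 39 signal bases in common. TRBV4 differed from TRBV2 and TRBV5 by 1 base of the V end, and that base makes its codon 5 a stop codon, TAA, where TRBV2 and TRBV5 have CAA. The other 4 V ends hold no stop codon in this frame.

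TRBV3 and TRBV4 were the most used of the 5 genes, at 6.17% ± 0.783 and 6.07% ± 0.801 of clonotypes (SD, n = 17), ranks 4 and 5 of the 23 TRBV genes tested. TRBV2 at 4.28% ± 1.04 and TRBV1 at 4.19% ± 0.639 were ranks 11 and 12. TRBV5 was rank 20, at 0.991% ± 0.671. TRBV3 and TRBV4 did not differ beyond their spread, nor did TRBV2 and TRBV1. The summed share of the 5 genes was 21.7% ± 1.31 of clonotypes, with a lowest value of 19.4% and a highest of 24.4%.

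**Figure D1:**
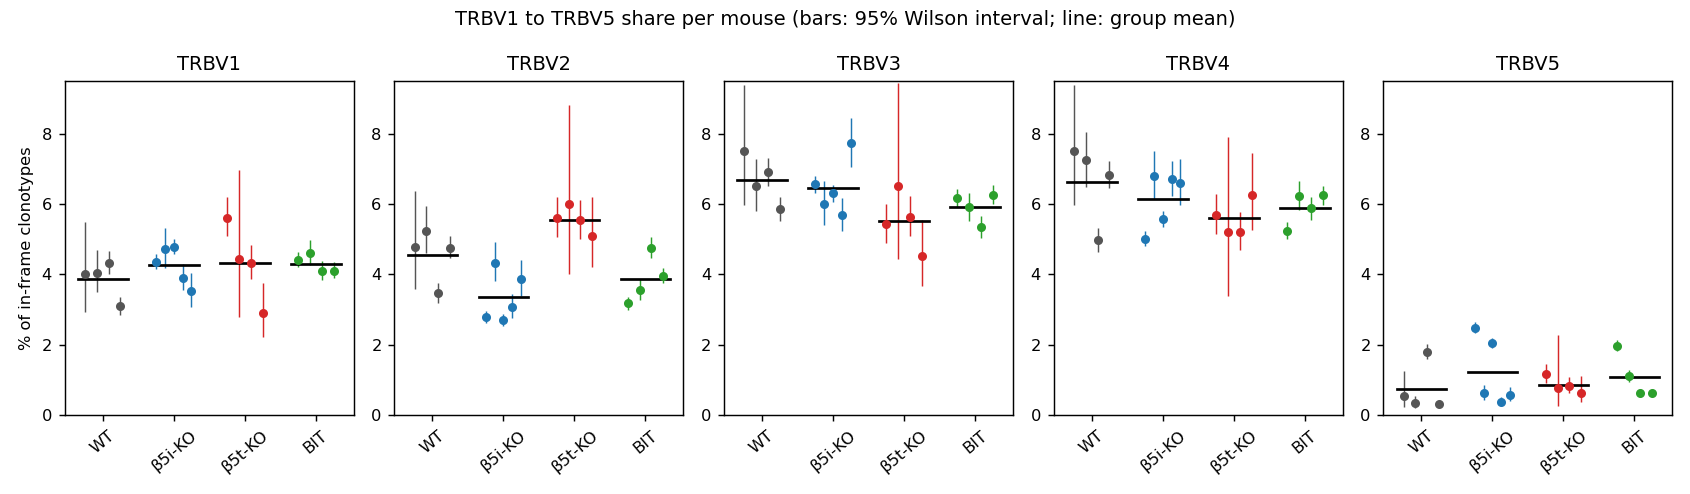
Share of in-frame clonotypes (%, y axis) taken by each gene in each of the 17 mice, by genotype (x axis). Points are mice, bars are 95% Wilson intervals of counting error, and black lines are group means. TRBV2 in β5t-KO mice, 5.11% to 5.99%, lies above TRBV2 in β5i-KO and BIT mice. TRBV5 is highest, at 1.79% or more, in WT replicate 3, β5i-KO replicates 1 and 3 and BIT replicate 1.

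The first question was whether any genotype used these genes differently. None of the 5 genes was called by edgeR's quasi-likelihood test in any of the 5 planned comparisons, which set the 3 altered genotypes against WT and BIT mice against both knockouts. In each of them 0 of 23 TRBV genes were called (0%). With no call in either set, the test cannot show whether the members stood apart from the other TRBV genes. At an unadjusted p under 0.05 the test listed 3 of the 25 member values, in comparisons where it listed 1, 2 and 2 of all 23 genes, and DESeq2 called none of the 5 members. The 25 log2 fold changes ran from -0.52 to 0.65. Against WT, the median log2 fold change of the members was -0.04 for the β5i-KO, 0.14 for the β5t-KO and -0.16 for the BIT genotype, beside 0.04, 0.02 and 0.06 over all 23 genes.

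**Figure D2:**
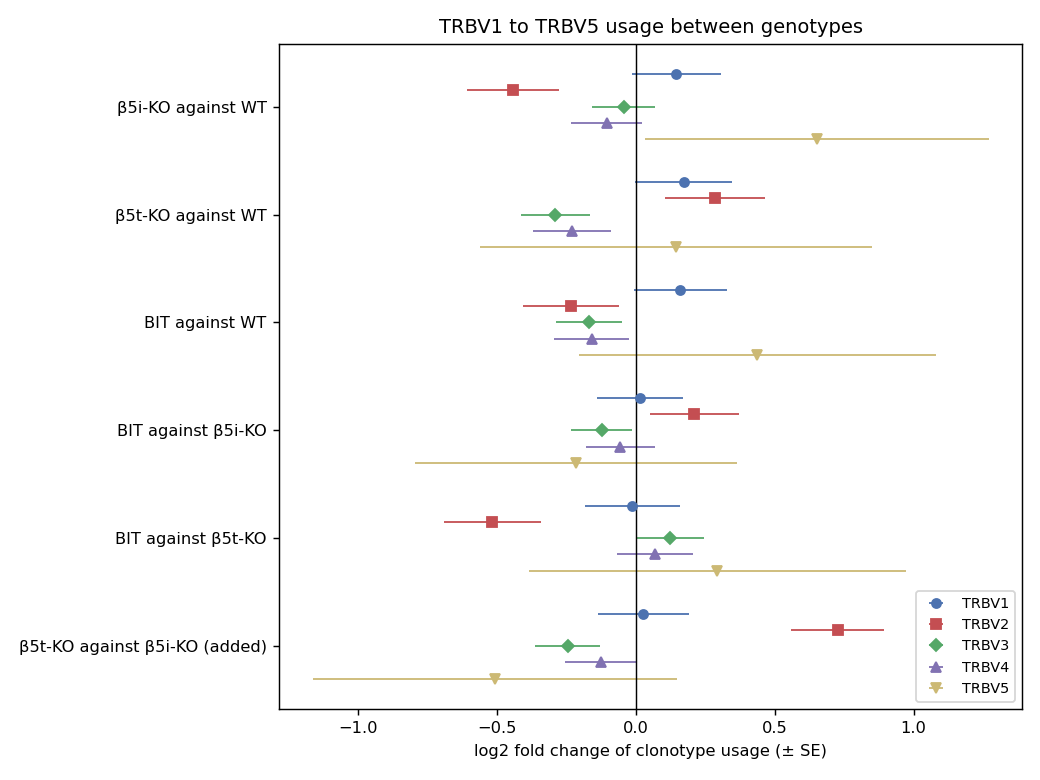
Log2 fold change of clonotype usage (x axis, ± SE) for the 5 genes in 6 comparisons (y axis). Points are estimates of edgeR's fit to all 17 mice, and the bottom comparison was added after the shares had been seen. TRBV5 has the widest errors, and TRBV2 gives the 3 values farthest from 0 relative to their errors.

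TRBV2 came closest of the 5 to separating the genotypes. In β5t-KO mice its share of clonotypes was 5.60%, 5.99%, 5.55% and 5.11%. WT mice had 4.79%, 5.23%, 3.46% and 4.76%. In BIT mice it was 3.18%, 3.56%, 4.75% and 3.96%, and in β5i-KO mice 2.79%, 4.34%, 2.70%, 3.08% and 3.88%. All β5t-KO values were above all β5i-KO and BIT values, while the WT values overlapped with those of every other genotype. The mean was highest in β5t-KO mice, at 5.56% ± 0.362, followed by WT at 4.56% ± 0.764 and BIT at 3.86% ± 0.672 (SD, n = 4 each), and lowest in β5i-KO mice, at 3.36% ± 0.718 (SD, n = 5).

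Against WT, TRBV2 had a log2 fold change of -0.44 ± 0.16 in mice lacking β5i (SE, edgeR adjusted p = 0.368) and 0.28 ± 0.18 in mice lacking β5t (SE, edgeR adjusted p = 0.505). Between BIT and β5t-KO mice it was -0.52 ± 0.18 (SE, edgeR adjusted p = 0.221). None of these passed the threshold of 0.05. After these shares had been seen, β5t-KO mice were also compared with β5i-KO mice. TRBV2 was then higher by 0.73 ± 0.17 on the log2 scale (SE, edgeR adjusted p = 0.0116), the only one of 23 TRBV genes called (4.35%). Since the comparison was chosen on the separation of the shares, this value describes it and is no independent support for it.

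The TRBV2 call was lost by molecules, by reads and at equal depth. Counting molecules, the log2 difference was 0.71 ± 0.21 (SE, edgeR adjusted p = 0.0851), and by reads it was 0.55 ± 0.23 (adjusted p = 0.376). After thinning every library to 7669 molecules, with each clonotype still counted once, it was 0.72 ± 0.21 (adjusted p = 0.072). The direction held in all 3, and the call held with each of the 17 mice left out in turn (adjusted p 0.00282 to 0.0415). The β5t-KO libraries held 384 to 6581 clonotypes and the β5i-KO libraries 5350 to 39542, and the part of that difference in the result beyond the thinned value was not tested. Of the V-J pairs, TRBV2 with TRBJ2-1 moved in the same way.

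Joins of TRBV2 to TRBJ2-1 made up 0.802%, 1.04%, 0.790% and 1.05% of clonotypes in β5t-KO mice. In β5i-KO mice they made up 0.308%, 0.579%, 0.324%, 0.402% and 0.520%, so that these groups did not overlap. WT mice had 0.545% to 0.653% and BIT mice 0.397% to 0.658%. The log2 fold change of β5t-KO against β5i-KO mice was 1.11 ± 0.23 (SE, edgeR adjusted p = 0.0237 over 248 pairs, of which 0.806% were called). The β5t-KO libraries hold 4 to 52 such clonotypes each. The call was lost without β5i-KO replicate 1 or 3 or β5t-KO replicate 1 or 3 (adjusted p 0.0536 to 0.0881) and with molecules in place of clonotypes (1.33 ± 0.30, adjusted p = 0.0626), thinned molecules (adjusted p = 0.189) or only the groups compared (adjusted p = 0.0894). This pair comes from the comparison chosen after the shares had been seen. Lack of overlap between β5t-KO and β5i-KO mice was not particular to it. TRBV1 with TRBJ2-1 (0.669% to 0.818% against 0.395% to 0.559%) and TRBV2 with TRBJ2-3 (0.478% to 0.781% against 0.215% to 0.377%) were also higher without overlap. TRBV3 with TRBJ2-7 was lower without overlap, at 1% to 1.37% against 1.38% to 1.70%. The share of all pairs that separate in this way was not counted. In the 5 planned comparisons 0 of 248 V-J pairs were called (0%), and 0 of the 60 pairs of these genes. At an unadjusted p under 0.05 the test listed 8, 4 and 0 of the 60 pairs for the β5i-KO, β5t-KO and BIT genotypes against WT, and 1 and 4 for BIT against β5i-KO and β5t-KO. Over all 248 pairs it listed 15, 9, 0, 6 and 12 in the same order. DESeq2 also called 0 of the 60 in each planned comparison.

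TRBV3 was the member with the lowest p in β5t-KO mice against WT. Its share was 7.51%, 6.51%, 6.90% and 5.86% in WT mice and 5.43%, 6.51%, 5.64% and 4.53% in β5t-KO mice. The ranges overlapped, and the log2 fold change of -0.29 ± 0.12 did not pass the test (SE, edgeR adjusted p = 0.367). In β5i-KO mice TRBV3 took 5.69% to 7.73% of clonotypes, and in BIT mice 5.34% to 6.26%.

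TRBV4 took 7.51%, 7.24%, 4.97% and 6.83% of clonotypes in WT mice, the widest range of any genotype. All values of the other genotypes were within that range, at 5.02% to 6.80% (β5i-KO), 5.21% to 6.26% (β5t-KO) and 5.24% to 6.25% (BIT). For TRBV1 the WT values ran from 3.09% to 4.32%, those of β5i-KO mice from 3.52% to 4.79%, those of β5t-KO mice from 2.89% to 5.62% and those of BIT mice from 4.11% to 4.61%. The BIT values of TRBV1 were the closest together of the 4 genotypes.

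TRBV5 varied the most of the 5 between mice of 1 genotype. Its within-genotype coefficient of variation was 69.2%, beside 11.4% for TRBV3, 12.4% for TRBV4, 16.2% for TRBV1, 16.5% for TRBV2 and a median of 20.7% over the other 18 TRBV genes, of which TRBV21 (85.1%) and TRBV24 (79.9%), both rare, were higher. The chi-square over degrees of freedom against counting error alone was 64.1 for TRBV5, rank 4 of 23, and 5.44 to 15.4 for the other members, beside a median of 9.61 and a highest value of 105.6 over the other 18 genes. In WT mice TRBV5 took 0.544%, 0.331%, 1.79% and 0.330% of clonotypes. It took 2.49%, 0.617%, 2.05%, 0.382% and 0.574% in β5i-KO mice, and 1.98%, 1.11%, 0.622% and 0.641% in BIT mice. Thus 4 libraries, WT replicate 3, β5i-KO replicates 1 and 3 and BIT replicate 1, reached at least 1.79%, and none of the β5t-KO libraries, at 0.632% to 1.16%, did.

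The Wilson intervals of those 4 libraries, the lowest of which began at 1.59%, did not reach the next highest mouse, β5t-KO replicate 1, at 1.16%. The interval of β5t-KO replicate 2, with 3 TRBV5 clonotypes, reached 2.27%. The same 4 libraries were also the highest by molecules, at 2.27% to 2.88%. These libraries had 9.69 to 14.7 reads per molecule. One other library, BIT replicate 5, was as low, with 14.5 reads per molecule and 0.641% TRBV5. The 4 libraries also carry replicate number 1 or 3. So do WT replicate 1 (0.544%) and β5t-KO replicates 1 and 3 (1.16% and 0.836%), which were lower. The part of reads per molecule or of replicate number in the TRBV5 share was not tested. This set of 4 was noticed after the values had been seen.

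Over the 17 libraries the TRBV gene whose share was most like that of TRBV5 was TRBV13-1 (Pearson r = 0.92). The gene most like TRBV1 was TRBV12-2 (r = 0.68), most like TRBV3 was TRBV30 (r = 0.61), most like TRBV4 was TRBV13-2 (r = 0.66) and most like TRBV2 was TRBV29 (r = 0.34). TRBV4 and TRBV5 ran against each other (r = -0.74), as did TRBV2 and TRBV5 (r = -0.60). These are descriptions over 17 points that share library depth and a fixed total, so that one share can only grow as others shrink.

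The second question was how often each gene stood in joins that cannot make a receptor. Each distinct combination of V gene, J gene and CDR3 nucleotides was counted once, in the 15 libraries with at least 50 out-of-frame joins (102 to 1262 each). An exact two-sided paired sign-flip permutation test over libraries, adjusted over 23 TRBV genes, called 4 of the 5 members and 16 of the 23 genes (69.6%), so a call here is common among TRBV genes. TRBV3 was higher in frame, as were 43.5% of the 23 genes. TRBV4, TRBV5 and TRBV1 were lower, as were 26.1%, and TRBV2 did not pass.

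**Figure D3:**
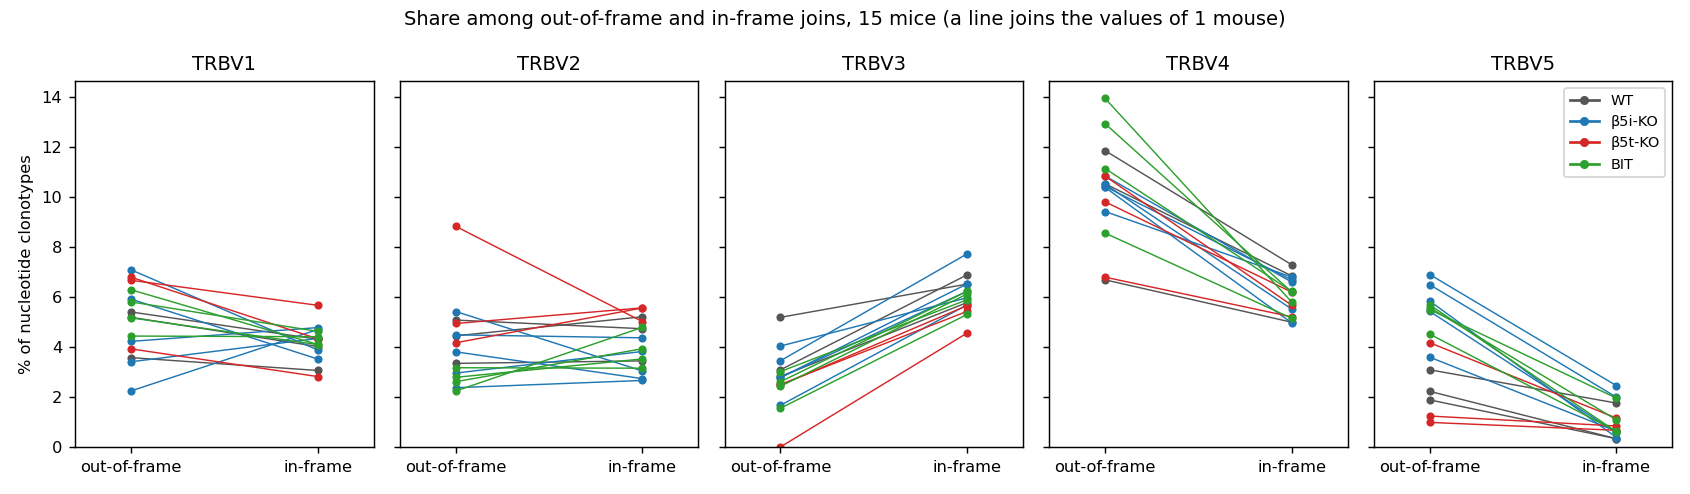
Share of distinct nucleotide clonotypes (%, y axis) taken by each gene among out-of-frame and in-frame joins (x axis). Each line is 1 of 15 mice, coloured by genotype. The lines rise for TRBV3 and fall for TRBV4 and TRBV5 in every mouse, and cross for TRBV2.

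TRBV4 was the most frequent member out of frame. Its share was 6.68% to 13.9% of out-of-frame joins (median 10.5%) and 4.96% to 7.28% of in-frame joins (median 6.19%). In frame it was lower by a mean of 4.30 percentage points (SD 1.74), in 15 of 15 mice (exact permutation p = 6.1e-05, the smallest this test can give, adjusted p = 0.000156). Joins that keep the germline stop codon of TRBV4 cannot enter the in-frame class, so this direction is fixed in part by how the joins were sorted. The mean out-of-frame share of TRBV4 ranged from 9.14% in β5t-KO to 11.6% in BIT mice.

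Among the 5 members, TRBV5 showed the largest ratio between the 2 kinds of join. It took 4.20% ± 1.94 of out-of-frame joins and 1.02% ± 0.688 of in-frame joins (SD, n = 15, exact permutation test, adjusted p = 0.000156), and was lower in frame in 15 of 15 mice. Its out-of-frame share averaged 2.40% in WT and 2.13% in β5t-KO mice, below TRBV2 (4.29% and 5.98%) and TRBV1 (4.72% and 5.79%) in the same mice. In β5i-KO and BIT mice it averaged 5.64% and 5.31%, above TRBV2 (3.81% and 2.70%). Beside TRBV1 in these mice (4.57% and 5.42%), it was higher in β5i-KO and lower in BIT mice. The difference between genotypes in that share was not tested.

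TRBV3 went the other way. It took 2.69% ± 1.15 of out-of-frame joins and 6.03% ± 0.736 of in-frame joins (SD, n = 15), higher in frame in 15 of 15 mice (exact permutation test, adjusted p = 0.000156). TRBV1 was lower in frame by a mean of 0.898 percentage points, in 12 of 15 mice (exact permutation test, adjusted p = 0.0491). That call held without β5i-KO replicate 1, 2 or 3 and was lost without any of the other 12 mice (adjusted p 0.053 to 0.0942). TRBV2 took 4.10% in frame and 4.04% out of frame (exact permutation test, adjusted p = 0.893).

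Shares of out-of-frame joins depend on the other genes present. TRBV31 and TRBV24, named after their values had been seen, took 14.4% and 9.85% of out-of-frame joins but 2.67% and 0.0698% of in-frame joins. With both left out of the totals, TRBV3, TRBV4 and TRBV5 kept their directions and calls. TRBV2 then became lower in frame by 1.11 percentage points (exact permutation test, adjusted p = 0.0438), so its direction rests on which genes are counted. The libraries were made from RNA, so a join was counted only where it was transcribed.

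The stop codon in the TRBV4 germline end could be followed in the joins. Of 392 clonotypes that were in frame but held a stop codon, 165 (42.1%) used TRBV4, the most of any TRBV gene, and in 151 of these the stop was at CDR3 residue 5. The other 4 genes had 3 to 18 such clonotypes each. As a share of joins in the V frame, stop codons made up 1.10% for TRBV4 (95% Wilson interval 0.948% to 1.28%) and 0.0322% to 0.223% for the other 4 genes. TRBV24, a rare gene outside the 5, had 19 clonotypes with a stop codon, beside 167 in-frame ones in 15 libraries. TRBV4 was thus the highest of all TRBV genes by count and not by share. Intervals here cover counting error only.

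Trimming of the V end differed between the genes and, for TRBV4, between the frames. In frame, 65.1% ± 3.44 of TRBV2 clonotypes had no V base removed (SD, n = 17), beside 38.5% ± 4.69 for TRBV5 (n = 13 libraries with at least 20 clonotypes), 34.5% ± 3.36 for TRBV1 (n = 16), 6.80% ± 1.64 for TRBV3 (n = 17) and 1.49% ± 0.502 for TRBV4 (n = 17). TRBV4 lost 4.56 ± 0.0706 V bases on average and TRBV2 1.01 ± 0.102. TRBV2 and TRBV5, which have the same V end, differed in this measure with no overlap between their libraries, 56.5% to 70.9% against 31.3% to 50% untrimmed.

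Removing at most 2 bases leaves the TRBV4 stop codon whole. This was the case in 3.79% of in-frame TRBV4 joins, where the assembled bases then differ from the germline, in 43.9% of out-of-frame joins (95% Wilson interval 40.4% to 47.4%) and in 81.2% of joins with a stop codon. For the other 4 genes the same measure was close in both frames, with 60.8% and 63.0% for TRBV1, 81.1% and 79.4% for TRBV2, 34.3% and 29.5% for TRBV3, and 61.7% and 60.9% for TRBV5. Joins with a stop codon were kept out of the in-frame class, so the gap for TRBV4 is fixed in part by how the joins were sorted.

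**Figure D4:**
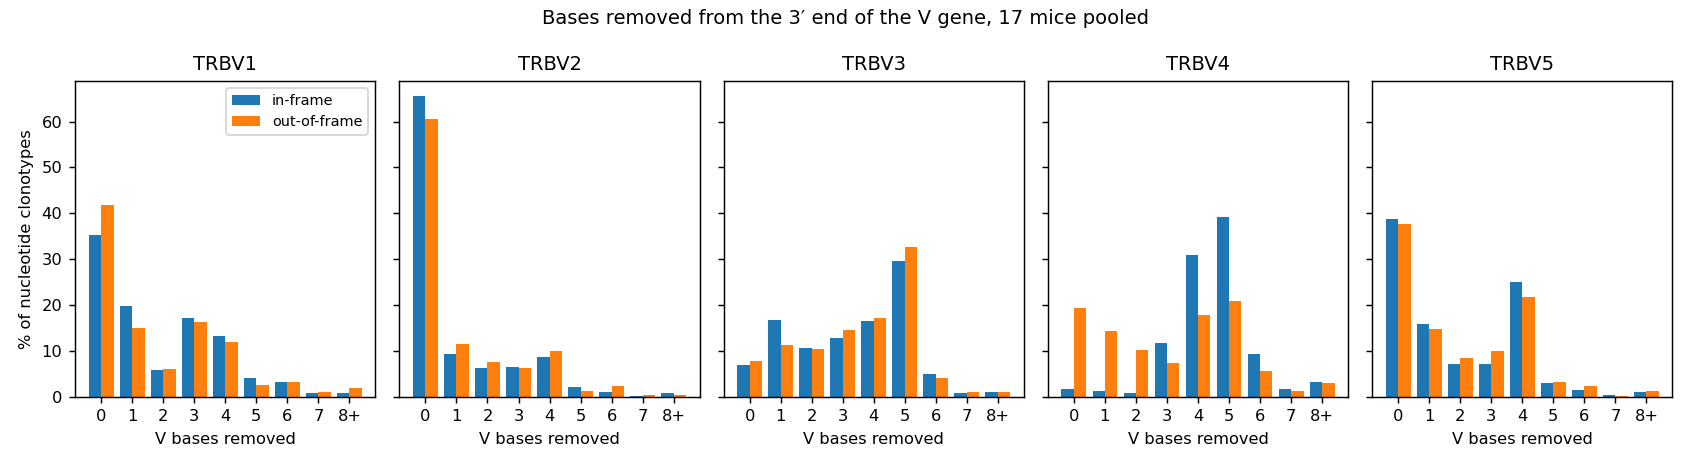
Percentage of distinct nucleotide clonotypes (y axis) by the number of V bases removed (x axis, 8+ pools 8 or more), for in-frame and out-of-frame joins pooled over 17 mice. In-frame TRBV4 joins, with 3.79% at 0 to 2 bases, have low bars where its out-of-frame joins hold 43.9%. The other 4 genes have similar bars in both frames.

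The V ends could be read in the first residues of CDR3. CTCSA opened 75.8% ± 3.12 of TRBV1 clonotypes (SD, n = 16), CASSQ opened 82.3% ± 2.23 of TRBV2 (n = 17) and 66.4% ± 5.07 of TRBV5 (n = 13), and CASSL opened 39.05% ± 5.00 of TRBV3 (n = 17). TRBV4 had no main opening, with CASSS at 15.1%, CASSP at 14.5% and CASSY at 12.6%.

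CDR3 length followed the same order as trimming at its ends. The mean was 14.7 ± 0.108 residues for TRBV2 (SD, n = 17), 14.4 ± 0.175 for TRBV5 (n = 13), 14.2 ± 0.128 for TRBV1 (n = 16), 14.2 ± 0.108 for TRBV3 (n = 17) and 13.9 ± 0.0911 for TRBV4 (n = 17). The lowest TRBV2 library, at 14.5, was above the highest TRBV4 library, at 14.3. Across genotypes none of the 25 tests of the members passed in limma (2 at an unadjusted p under 0.05), beside 0.952% called over the 105 tests of 21 TRBV genes, the 1 call being among the 21 tests of β5t-KO against WT (4.76%).

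**Figure D5:**
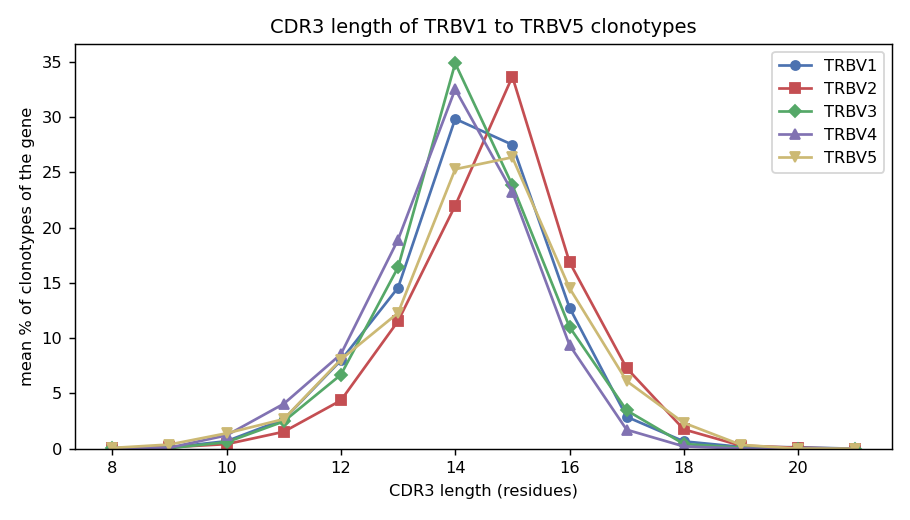
Mean percentage of a gene's clonotypes (y axis) at each CDR3 length in residues (x axis), averaged over libraries with at least 20 clonotypes of the gene. The TRBV4 curve, with a mean length of 13.9 residues, sits to the left of the TRBV2 curve, with a mean of 14.7.

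TRBV1 had the lowest adjusted p for length. Its mean CDR3 length was 14.01, 13.93 and 14.35 residues in β5t-KO replicates 1, 3 and 4, the only β5t-KO libraries with at least 20 TRBV1 clonotypes, and 14.1 to 14.4 residues in WT mice. The ranges overlapped, and the difference of -0.19 ± 0.0852 residues did not pass (SE, limma adjusted p = 0.0955). It passed when libraries were weighted by their clonotypes, at -0.30 ± 0.0726 (SE, limma adjusted p = 0.00383). It also passed without β5t-KO replicate 4, which holds 55 TRBV1 clonotypes, at -0.32 ± 0.0729 (SE, limma adjusted p = 0.0101), and without WT replicate 1, at -0.24 ± 0.0838 (SE, limma adjusted p = 0.0338). Without β5t-KO replicate 2, TRBV3 passed in place of TRBV1, at -0.13 ± 0.0408 (SE, limma adjusted p = 0.0328). Between BIT and β5t-KO mice the main difference of TRBV1 was 0.16 ± 0.0852 residues (SE, limma adjusted p = 0.239). TRBV1 passed there with weights (0.24, limma adjusted p = 0.00448) and without β5t-KO replicate 4 (0.28, limma adjusted p = 0.0277), and TRBV3 without β5t-KO replicate 2 (0.14, limma adjusted p = 0.0282).

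TRBJ2 genes supplied most J segments for all 5 genes. Their share was 77.1% ± 4.11 of TRBV5 clonotypes (SD, n = 13), 73.5% ± 3.83 of TRBV3, 73.4% ± 3.25 of TRBV4, 70.1% ± 5.11 of TRBV1 and 68.6% ± 5.13 of TRBV2, beside 70.4% ± 2.38 over the other TRBV genes (SD, n = 17). TRBJ2-7 was the most used J gene with each of the 5, from 19.5% with TRBV2 to 25.5% with TRBV5. In limma, 0 of 25 tests of log2 TRBJ2 over TRBJ1 were called for the members (3 at an unadjusted p under 0.05), as were 0 of the 105 tests of all genes (0%). The lowest was TRBV5 in β5i-KO against WT, -0.72 ± 0.23 (SE, limma adjusted p = 0.0985), which rests on 2 WT libraries.

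Clone size was compared as the share of molecules over the share of clonotypes. The log2 differences between genotypes lay between -0.19 and 0.12, and 0 of 25 were called for the members by limma (0 at an unadjusted p under 0.05), beside 1.9% of 105 tests over all genes, where both calls were in BIT against β5t-KO (9.52% of 21). The largest single clonotype of a member was in TRBV3 of β5t-KO replicate 3, with 260 molecules, 0.936% of the in-frame molecules of that library.

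Few CDR3 sequences of these genes recurred between mice. Of the distinct CDR3 amino acid sequences, 88.9% of TRBV1, 91.0% of TRBV2, 89.8% of TRBV3, 89.2% of TRBV4 and 95.2% of TRBV5 were found in 1 library only, beside 89.0% for the other TRBV genes. Those found in 9 or more libraries numbered 3 for TRBV1, 3 for TRBV2, 1 for TRBV3, 6 for TRBV4 and 0 for TRBV5. That was 0% to 0.0485% of each gene's sequences, beside 122 (0.073%) for the other TRBV genes. The chance of recurrence rises with depth and number of clonotypes, which differ between the genes.

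The most recurrent sequences of at most 14 residues are shown as their leading nucleotide form, meaning the form found in the most libraries. That form need not hold most of the molecules of its CDR3. The J gene or the amino acids serve as the name, and capitals mark the bases assigned to the V gene.
TRBV1 with TRBJ2-7: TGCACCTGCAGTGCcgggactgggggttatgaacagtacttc
TRBV1 with TRBJ1-1: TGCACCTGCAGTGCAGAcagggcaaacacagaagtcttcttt
TRBV2 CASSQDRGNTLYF: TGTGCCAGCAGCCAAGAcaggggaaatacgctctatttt
TRBV3 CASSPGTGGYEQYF: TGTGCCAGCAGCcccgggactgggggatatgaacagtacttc
TRBV4 with TRBJ2-7: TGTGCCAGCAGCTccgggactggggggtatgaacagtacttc
TRBV4 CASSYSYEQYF: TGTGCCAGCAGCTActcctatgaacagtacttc
TRBV5 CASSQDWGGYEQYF: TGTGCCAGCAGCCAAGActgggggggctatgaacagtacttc

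The CDR3 of TRBV1 with TRBJ2-7, which had that J gene in every clone, was found in 12 of 17 libraries (2 of WT, 4 of β5i-KO, 2 of β5t-KO and 4 of BIT mice) and was encoded by 15 nucleotide sequences. The CDR3 of TRBV1 with TRBJ1-1 was found in 9 libraries. In its leading form, seen in 7 libraries, all 17 bases of the V end are retained. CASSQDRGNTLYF of TRBV2 was found in 8 libraries, and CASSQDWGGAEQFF, the other TRBV2 sequence, in 7 (1 of β5i-KO, 3 of β5t-KO and 3 of BIT mice, 0 of WT). Longer TRBV2 sequences, not shown, were found in up to 12 libraries. The 2 of TRBV5 were found in 5 and 4 libraries.

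The CDR3 shown for TRBV4 with TRBJ2-7 was found with TRBV4 in 11 libraries and with TRBV3 in 8, and the leading nucleotide form was the same with both V genes, so that the bases upstream of CDR3 are what tells them apart. With TRBV4 it was found in 1 library of WT mice, 4 of β5i-KO, 3 of β5t-KO and 3 of BIT mice, with 22, 43, 70 and 35 molecules in these groups. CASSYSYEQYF of TRBV4 was also found in 11 libraries, and 90.7% of its molecules had 1 nucleotide sequence, in which the first 14 V bases remain, without the last base of the germline stop codon. These counts of libraries were not tested between genotypes.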

How the data were processed

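TCRβ libraries were made by the submitters from total RNA of sorted CD8 T cells. In the deposited tables, 1 per mouse, every clone has raw counts of reads and of unique molecules, not normalised, and a CDR3 sequence with its V, D and J genes in the format of MiXCR. The version and settings of the assembly are not given in the sources used here. The submitters' processing notes name mm10. The tables hold no coordinates, so positions and germline sequence come from GRCm39. TCRα tables were not used.

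Clones without a frameshift or stop codon were in frame. A clone listing several V genes (at most 0.0558% for any member) was assigned to the first. Usage of V genes and V-J pairs was fitted in edgeR 4.0.16 with library sizes as the normalisation and its quasi-likelihood test, for features with 5 or more clonotypes in 4 or more libraries, and CDR3 length, TRBJ2 over TRBJ1 (0.5 added to both counts) and clone size with limma 3.58.1, at least 20 clonotypes per gene and library and at least 2 libraries per group, all 4 groups in one fit, Benjamini-Hochberg threshold 0.05, in R 4.3.3. Where edgeR's p would fall below that of a Poisson fit it returns the latter, while standard errors were taken from its F statistic, which raised p for TRBV3 in β5i-KO against WT and for TRBV4 in β5t-KO against β5i-KO above what the standard error gives. DESeq2 1.42.0 was an alternative. The sign-flip test enumerated all sign patterns of the 15 libraries. Python 3.11.15 (pandas 2.3.3, SciPy 1.17.1, NumPy 2.4.6, Matplotlib 3.10.9) gave the other values and the figures.

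The genes, lists and tests were chosen with earlier results of these data known. The rule for names was the 5 genes, up to 2 other TRBV genes called per comparison, the gene most correlated with each member, up to 3 called V-J pairs per comparison, and the 2 most recurrent CDR3 of at most 14 residues per member. β5t-KO against β5i-KO, the totals without TRBV24 and TRBV31, and stop codons counted with in-frame joins were added after seeing the data, and the stop codon and trimming measures were chosen then too. Replicates are mice, named as separate individuals in the protocol, and within-group pairs of libraries shared 0.254% to 2.36% of nucleotide clonotypes. The edgeR fit without a block, the limma fit without weights or missing libraries (both in BIT against WT only) and the sign-flip test were tested on simulated data. The DESeq2, blocked and weighted fits were not.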

Additional observations from a re-analysis of the deposited data

Results flagged for a closer look

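Among 54 sets of 4 or 5 mice checked, 5 values lay far from the rest of their genotype, where chance flags about 1 set in 20. TRBV5 took 1.79% of clonotypes in WT replicate 3, while the nearest other WT mouse had 0.544%. Mean CDR3 length of TRBV2 was 14.5 residues in β5t-KO replicate 4 (nearest 14.7). For TRBV4 it was 14.25 residues in β5t-KO replicate 2 (nearest 13.9), which holds 20 TRBV4 clonotypes, and 13.8 residues in BIT replicate 2 (nearest 13.9). For TRBV5 it was 13.9 residues in β5i-KO replicate 5 (nearest 14.4).

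In BIT replicate 3, which was not among the mice compared, TRBV2 took 6.23% of 401 clonotypes (25 clonotypes, 95% Wilson interval 4.26% to 9.04%), above the highest WT value of 5.23%, which lies inside that interval.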

How the results depend on the processing

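In the 5 planned comparisons no alternative called a member gene or V-J pair, apart from the replicate block (below), and neither did leaving out any mouse (0 to 0 calls each). Calls in CDR3 length rose from 0 to 2 with weights (TRBV1 in β5t-KO against WT and in BIT against β5t-KO) and were 0 to 2 without single mice (WT replicate 1 and β5t-KO replicates 2 and 4), and calls in TRBJ2 share and molecules per clonotype stayed at 0. The number of genes differing between frames was 3 to 4 without single mice. TRBV1 there lost its call by molecules (-0.690 percentage points, adjusted p = 0.138) and with stop codons added to the out-of-frame joins (-0.752, adjusted p = 0.0813).

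In the added comparison of β5t-KO with β5i-KO mice, member genes called fell from 1 to 0 with molecules, reads or thinned molecules, and were 1 to 1 without single mice. V-J pairs called fell from 1 to 0 with molecules, thinned molecules or only the groups compared, rose to 2 with BIT replicate 3 or DESeq2, and were 0 to 2 without single mice.

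Samples with the same replicate number correlated between -0.32 and 0.92 (median 0.40, 22 pairs), and samples with different numbers had a median of -0.22 (86 pairs). Same-number samples thus ran together more often, but some ran against each other and no label ties the numbers to a litter or day, so the main values carry no block. With the replicate number as a block, BIT against β5t-KO gave 1 member gene (TRBV2, -0.67, edgeR adjusted p = 0.0129) and 2 member V-J pairs, and β5t-KO against β5i-KO gave 7 member V-J pairs. Under this block TRBV5 reversed in β5t-KO against WT (-0.19) and BIT against β5i-KO (0.26), TRBV1 in BIT against β5t-KO (0.076) and β5t-KO against β5i-KO (-0.013), and TRBV4 in BIT against β5t-KO (-0.063). It changed no other call in the planned comparisons.

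The other reversed log2 fold changes passed no test in either direction. TRBV3 in β5i-KO against WT was 0.054 by reads and 0.016 by DESeq2. TRBV5 in β5t-KO against WT was -0.082 by molecules. TRBV1 in BIT against β5i-KO was -0.00048 by reads, -0.0096 thinned, -0.018 with BIT replicate 3 and -0.020 by DESeq2. TRBV4 in BIT against β5t-KO was -0.039 by molecules, -0.0018 with BIT replicate 3 and -0.00019 by DESeq2. Without single mice, TRBV3 ranged from -0.12 to 0.0074 in β5i-KO against WT, TRBV1 from -0.011 to 0.33 in β5t-KO against WT, -0.045 to 0.062 in BIT against β5i-KO, -0.17 to 0.17 in BIT against β5t-KO and -0.16 to 0.19 in β5t-KO against β5i-KO, and TRBV5 from -0.18 to 1.31 in β5t-KO against WT, -0.032 to 1.60 in BIT against WT, -0.68 to 0.21 in BIT against β5i-KO and -0.18 to 0.53 in BIT against β5t-KO. The frame difference of TRBV2 ranged from -0.118 to 0.336 percentage points without single mice, and was -1.11 without TRBV24 and TRBV31, which passed (adjusted p = 0.0438). The causes were not tested. The shallowest library held 384 clonotypes, 3 of them TRBV5.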
